A study of Medicago truncatula with 24 samples.

Results

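The regions described here are the H3ac peaks of *Medicago truncatula* embryos that lay clear of H3K27me3 at every stage and temperature measured. A member is a peak of one of the 4 H3ac lists, on chromosomes 1 to 8, that overlaps by 1 bp or more no peak of any of the 8 H3K27me3 lists. The rule took 3820 of 6620 H3ac peaks on these chromosomes (57.7%, 95% interval 56.5 to 58.9%), and the other 2800 overlap an H3K27me3 peak. The members were chosen from the peak positions themselves, so their numbers and their distance from H3K27me3 are descriptions and are not tested. All plants were of the genotype A17, with no transgene or mutant allele. Embryos of S2, after desiccation tolerance was acquired, were collected 17 days after pollination at 26°C by day and 24°C by night (heat stress) and 26 days after pollination at 20°C by day and 18°C by night (standard temperature). Embryos of S1, before that step, were collected 14 days after pollination at 26°C and 17 days after pollination at 20°C. H3ac was measured at these 2 stages and H3K27me3 at 4, S1 to S4, each at both temperatures, with 1 IP and 1 INPUT library per condition from pooled embryos, 24 libraries in all. No condition has a replicate, although the series record speaks of repeated H3ac experiments. Differences between conditions therefore carry no replicate error and no p-value, and stage and temperature cannot be told apart from the library. Intervals on shares and ratios are exact 95% intervals (Clopper-Pearson for shares) and cover counting error only, and neighbouring peaks are not independent.

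H3ac stands for histone H3 acetylated on its tail, a modification that loosens the hold of histones on DNA and that usually lies over the start of genes in use. H3K27me3 is trimethylation of lysine 27 of the same histone, laid down by Polycomb complexes over genes that are kept silent, among them many that are switched on only in another tissue or at another age. The same lysine cannot carry both an acetyl and a methyl group on one histone tail, but nearby nucleosomes, or different cells of a tissue, can carry one mark each. In seeds, both marks are studied for their part in the passage from embryo growth to maturation and dryness.

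The H3ac list of S1 at 20°C stood apart from the other 3 and held most of the members. There were 179 members of 530 peaks at S2 and 26°C (33.8%, 29.8 to 38.0%), 251 of 786 at S1 and 26°C (31.9%, 28.7 to 35.3%), 266 of 928 at S2 and 20°C (28.7%, 25.8 to 31.7%) and 3124 of 4376 at S1 and 20°C (71.4%, 70.0 to 72.7%). In 3 lists, then, fewer peaks lay clear of H3K27me3 than under it, and in the list of S1 at 20°C the order was the reverse. Without that list the share of members over the other 3 was 31.0%. The fragments that made each peak bear on this. For lists other than S2 at 26°C, the fold enrichment and p-value of a peak give back the whole number of IP fragments at its summit, its point of highest coverage. The members rested on a median of 7 fragments at S1 and 26°C (range 5 to 16), 8 at S2 and 20°C (6 to 20) and 4 at S1 and 20°C (3 to 21). On 5 fragments or fewer rested 36 members (14.3%) at S1 and 26°C, 0 at S2 and 20°C and 2356 (75.4%) at S1 and 20°C. The median background under the members was 1.28 fragments at S1 and 26°C, 1.84 at S2 and 20°C and 0.590 at S1 and 20°C. By the study's read table the INPUT library of S1 at 20°C was by far the most deeply sequenced of the 4 for H3ac. Its IP library was the least deeply sequenced of the 4. How far the depth of the INPUT or of the IP set the number of members was not tested.

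**Figure D1:**
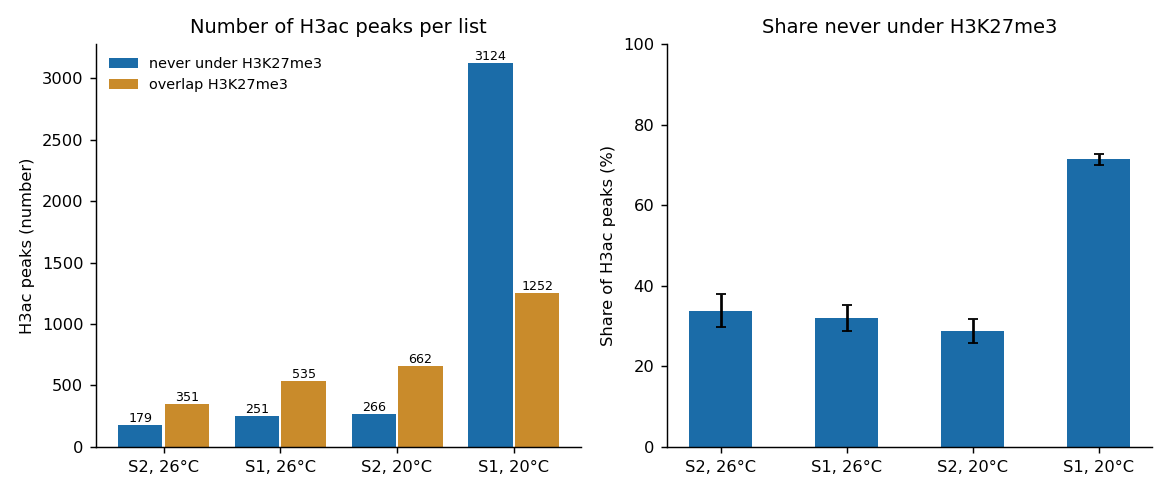
H3ac peaks on chromosomes 1 to 8 by list. Left, bars give the number of peaks that overlap no H3K27me3 peak (blue) and that overlap one (ochre); right, bars give the blue share in percent with exact 95% intervals. The list of S1 at 20°C holds 3124 members and a share of 71.4%, and the other 3 lists hold 179 to 266 members and shares of 28.7 to 33.8%.

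Fewer members were counted at S2 than at S1 and fewer at 26°C than at 20°C. From S1 to S2, the question is what differs across the acquisition of desiccation tolerance: the log2 ratio of member numbers, S2 over S1, was −0.49 (−0.77 to −0.21) at 26°C and −3.55 (−3.74 to −3.37) at 20°C. For heat stress against the standard temperature, the log2 ratio of 26°C over 20°C was −0.57 (−0.85 to −0.29) at S2 and −3.64 (−3.83 to −3.45) at S1. The other H3ac peaks gave smaller ratios wherever S1 at 20°C entered, −0.92 for S2 over S1 at 20°C and −1.23 for 26°C over 20°C at S1. Where it did not enter, the ratios of the other peaks were somewhat lower than those of the members, but the intervals overlap. For the other peaks they were −0.61 (−0.81 to −0.41) for S2 over S1 at 26°C and −0.92 (−1.11 to −0.73) for 26°C over 20°C at S2. Peaks of both kinds were thus fewer at S2 and at 26°C. Restricting the list of S1 at 20°C to peaks of at least 6 fragments, a step chosen after seeing the data, left 768 members there and ratios of −1.53 for S2 over S1 at 20°C and −1.61 for 26°C over 20°C at S1. The 2 member ratios without that list changed sign when the same number of peaks, 530, was taken from each list. They became 0.20 (−0.12 to 0.52, an interval that includes no difference) for S2 over S1 at 26°C and 0.83 (0.47 to 1.19) for 26°C over 20°C at S2.

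The members were short and weak peaks. Their median length was 992 bp at S2 and 26°C, 616 bp at S1 and 26°C, 791 bp at S2 and 20°C and 375 bp at S1 and 20°C, against 2454, 1162, 1315 and 448.5 bp, in the same order of lists, for H3ac peaks that overlap H3K27me3. A longer peak has more bases with which to touch an H3K27me3 peak, so length is not independent of the rule. Together they covered 0.294, 0.271, 0.323 and 1.42 Mb in these 4 lists. Their median fold enrichment over INPUT was 2.85 at S2 and 26°C (highest 15.2), 3.07 at S1 and 26°C (highest 7.46), 2.88 at S2 and 20°C (highest 5.99) and 3.14 at S1 and 20°C (highest 10.2). Values for the peaks under H3K27me3 were close, with medians of 2.93, 3.20, 3.39 and 3.14 in the same order. In the list of S1 at 20°C the low fragment numbers leave only a few possible values, and 792 members share a fold enrichment of 2.52. The median −log10 p of the members lay between 3.26 and 3.55 in the 4 lists. Their lowest values, 2.01 to 2.11, lay close to the study's p-value threshold of 0.01. Medians for the peaks under H3K27me3 were 3.92, 4.24, 4.72 and 3.44 in the same order, the last equal to that of the members.

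Members lay at all distances from H3K27me3, and those of S1 at 20°C lay farthest away. The median gap to the nearest H3K27me3 peak was 2996 bp at S2 and 26°C, 2765 bp at S1 and 26°C, 2566 bp at S2 and 20°C and 6128 bp at S1 and 20°C. Within 1 kb of an H3K27me3 peak lay 26.3, 25.5, 22.9 and 14.1% of the members in the same order, and more than 10 kb away lay 15.6, 20.3, 13.2 and 35.6%. At the limit of the rule, the member nearest to H3K27me3 was a peak of S1 at 20°C on chromosome 1 (23467308 to 23467672, MtrunA17r5.0 assembly) with 1 base between them and a fold enrichment of 3.14. The peak just outside the rule, from the same list, lies on chromosome 5 (23413953 to 23414304), overlaps H3K27me3 by 2 bp and has a fold enrichment of 3.40. Every list had members on all 8 chromosomes, with 7 to 42 per chromosome at S2 and 26°C, 15 to 49 at S1 and 26°C, 19 to 57 at S2 and 20°C and 286 to 496 at S1 and 20°C.

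Gene annotation took no part in the rule, and by it the members of S1 at 20°C differ from the rest. Of the H3ac peaks of each list, 8.49% at S2 and 26°C, 9.92% at S1 and 26°C, 6.47% at S2 and 20°C and 38.8% at S1 and 20°C overlap a protein-coding gene. Of the members, it was 16 of 179 at S2 and 26°C (8.94%, 5.20 to 14.1%), 35 of 251 at S1 and 26°C (13.9%, 9.91 to 18.9%), 14 of 266 at S2 and 20°C (5.26%, 2.91 to 8.67%) and 1437 of 3124 at S1 and 20°C (46.0%, 44.2 to 47.8%). The corresponding shares of the peaks under H3K27me3 were 8.26, 8.04, 6.95 and 20.8%. Only in the list of S1 at 20°C do the intervals of the 2 kinds of peak stand clear of each other. Protein-coding genes cover 30.5% of the bases of these chromosomes, so the members of 3 lists fell in genes less often than their share of the genome, and those of S1 at 20°C more often, also when the summit alone is placed (44.8%).

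By the summits, too, the list of S1 at 20°C had the most members at genes. A summit within 500 bp of either end of a protein-coding gene was found for 2.23% of the members at S2 and 26°C, 6.37% at S1 and 26°C, 2.26% at S2 and 20°C and 20.9% at S1 and 20°C, where such positions make up 14.2% of the chromosomes. The table of genes gives no strand, so the start of a gene and its end cannot be told apart. More than 10 kb from every protein-coding gene lay 63.1, 57.0, 70.7 and 18.0% of the member summits in the same order of lists, and positions this far from genes are 16.3% of the bases. Members of 3 lists were thus mostly far from genes, in stretches where few genes are annotated. This was no trait of the members alone. Of the peaks under H3K27me3, 75.5, 73.5, 76.1 and 49.6% had summits this far from genes, in the same order. Summits within 500 bp of a gene end made up 0.855, 1.12, 2.11 and 10.3% of those peaks. Among members whose summit lay inside a gene, the median distance from the summit to the nearer gene end was 4265 bp at S2 and 26°C (n = 14) and 6149.5 bp at S2 and 20°C (n = 12), against 743 bp at S1 and 26°C (n = 33) and 609 bp at S1 and 20°C (n = 1401). Within 1 kb of a gene end lay 21.4% of these summits at S2 and 26°C (4.66 to 50.8%) and 33.3% at S2 and 20°C (9.92 to 65.1%), against 63.6% at S1 and 26°C (45.1 to 79.6%) and 68.3% at S1 and 20°C (65.8 to 70.7%). Within 500 bp it was 14.3% at S2 and 26°C and 33.3% at S2 and 20°C, against 33.3% at S1 and 26°C and 41.1% at S1 and 20°C. The medians differ between the stages, but the few genic summits of S2 leave wide intervals, and within 500 bp S2 at 20°C and S1 at 26°C had the same share.

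**Figure D2:**
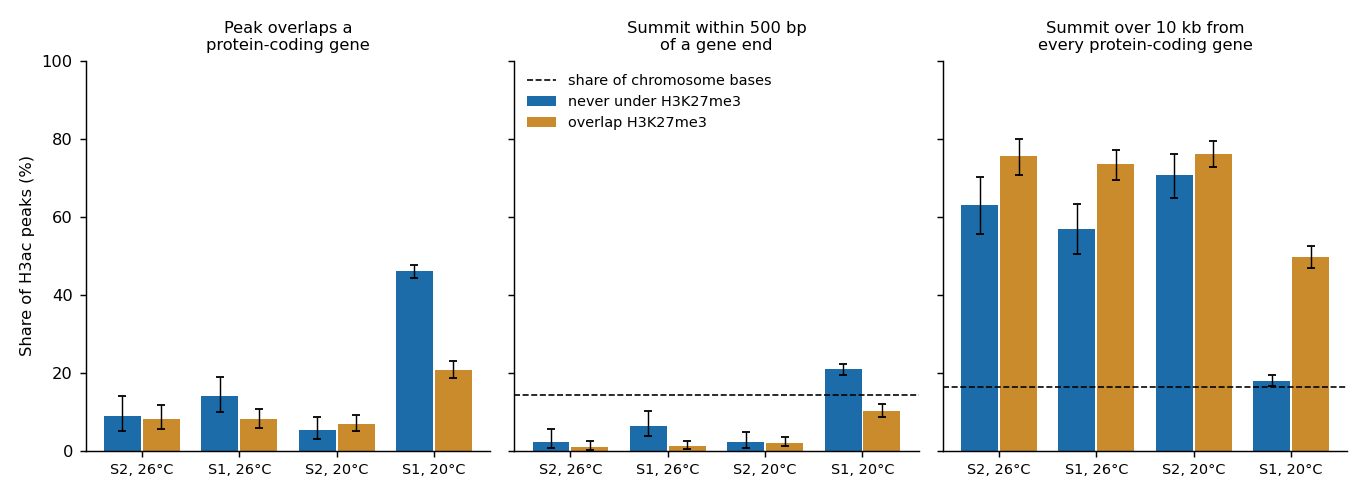
Position of H3ac peaks relative to protein-coding genes, as the share of the peaks of each list in percent, for peaks never under H3K27me3 (blue) and peaks that overlap it (ochre), with exact 95% intervals. The dashed lines give the share of chromosome bases at such positions (14.2% within 500 bp of a gene end, 16.3% over 10 kb from every gene); members of S1 at 20°C reach 46.0% in genes, and the other 3 lists reach 5.26 to 13.9%.

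Within the list of S1 at 20°C, members that rested on more fragments lay more often in and at the ends of genes. Members of 3 fragments overlap a protein-coding gene in 39.7% of cases (n = 917), those of 4 in 42.6% (n = 864), those of 5 in 45.0% (n = 575), those of 6 to 7 in 52.8% (n = 500) and those of 8 or more in 67.9% (n = 268, 95% interval 62.0 to 73.5%). A summit within 500 bp of a gene end was found for 14.4, 17.1, 21.7, 25.8 and 44.4% of the members in the same order of fragments. The weakest members thus had summits at gene ends about as often as bases of the chromosomes lie there (14.2%), and the strongest about 3 times as often. Peaks of this list that overlap H3K27me3 ran from 17.1% in genes at 3 fragments to 30.3% at 8 or more. In the list of S1 at 26°C, the share of members in genes showed no such order, with 16.7% at 5 fragments (n = 36), 11.6% at 6 to 7 (n = 129) and 16.3% at 8 or more (n = 86). At S2 and 20°C it was 8.42% at 6 to 7 fragments and 3.51% at 8 or more.

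Only a small share of the members of the list of S1 at 20°C recurred in another list, whatever their strength. The share of members that overlap a peak of another H3ac list was 1.64% at 3 fragments, 2.78% at 4, 4.17% at 5, 2.00% at 6 to 7 and 4.48% at 8 or more. Among the peaks of the same list that overlap H3K27me3, it was 15.8% at 3 fragments and 49.5% at 8 or more.

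**Figure D3:**
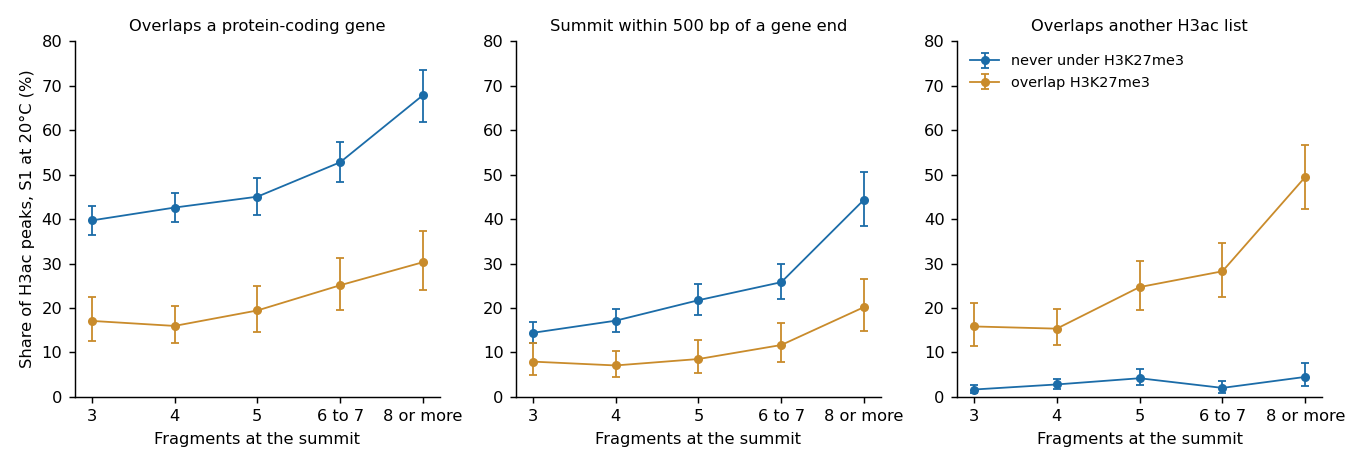
H3ac peaks of S1 at 20°C by the number of IP fragments at their summit (x axis). The y axes give, in percent with exact 95% intervals, the share in a protein-coding gene, the share with a summit within 500 bp of a gene end and the share that overlaps another H3ac list, for peaks never under H3K27me3 (blue) and peaks that overlap it (ochre). The blue share in genes is 39.7% at 3 fragments and 67.9% at 8 or more, and the blue share that recurs stays between 1.64 and 4.48%.

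With 1 library per condition, the other H3ac lists are the only check on a peak. Of all H3ac peaks, 64.3% at S2 and 26°C, 56.6% at S1 and 26°C, 51.5% at S2 and 20°C and 9.41% at S1 and 20°C overlap a peak of another list. Of the members, 62 of 179 did so at S2 and 26°C (34.6%, 27.7 to 42.1%), 79 of 251 at S1 and 26°C (31.5%, 25.8 to 37.6%), 80 of 266 at S2 and 20°C (30.1%, 24.6 to 36.0%) and 85 of 3124 at S1 and 20°C (2.72%, 2.18 to 3.35%). These shares depend on the size of the lists, and the largest list has the fewest peaks to be matched with. H3ac peaks under H3K27me3 recurred more often in every list, with 79.5, 68.4, 60.1 and 26.1% in the same order. Since those peaks are longer, the summit alone was also used. It lay in a peak of another list for 24.0, 26.3, 18.0 and 2.30% of the members, against 64.7, 61.3, 49.2 and 25.0% of the peaks under H3K27me3, so the order of the 2 kinds of peak held for points as well. This takes away the length of the peak itself but not that of the peaks of the other lists. Those were also longer under H3K27me3, so recurrence was not separated from length. Leaving out the list of S1 at 20°C, a step chosen after seeing the data, the share of members that recur was 31.8% at S2 and 26°C, 19.5% at S1 and 26°C and 22.9% at S2 and 20°C.

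Given as a share of each list, 23.5% of the members of S2 at 26°C overlap a peak of S2 at 20°C, and 13.9% of the members of S2 at 20°C overlap a peak of S2 at 26°C. Likewise 14.7% of the members of S1 at 26°C overlap a peak of S1 at 20°C, and 1.54% of the members of S1 at 20°C overlap a peak of S1 at 26°C. Across stages, 14.5% of the members of S2 at 26°C overlap a peak of S1 at 26°C, and 13.5% of the members of S1 at 26°C overlap a peak of S2 at 20°C. Merging overlapping members of the 4 lists gave 3699 regions, of which 3602 came from 1 list, 87 from 2, 10 from 3 and 0 from all 4. Among the regions of 2 lists, those of S1 at 26°C with S1 at 20°C were the most numerous (27), followed by S2 at 26°C with S2 at 20°C (17), S1 at 26°C with S2 at 20°C (16), S2 at 20°C with S1 at 20°C (14), S2 at 26°C with S1 at 26°C (7) and S2 at 26°C with S1 at 20°C (6). These counts depend on the size of the lists and were not compared between pairs.

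Regions of 2 lists that lay in genes came mostly from pairs with S1 at 20°C. Of the 17 regions with members at S2 at both temperatures only, 1 overlaps a protein-coding gene, against 10 of the 27 with members at S1 at both temperatures only. For S2 at 26°C with S1 at 20°C it was 2 of 6, for S2 at 20°C with S1 at 20°C 2 of 14, for S1 at 26°C with S2 at 20°C 0 of 16 and for S2 at 26°C with S1 at 26°C 0 of 7. Of the 35 members of S1 at 26°C in a protein-coding gene, 1 overlaps a peak of S2 at 26°C (2.86%, 0.0723 to 14.9%), 0 overlap a peak of S2 at 20°C (a count of 0, read as at most 3 of 35, allows a share of up to 8.57%) and 13 overlap a peak of S1 at 20°C (37.1%, 21.5 to 55.1%). Of the 216 members of S1 at 26°C outside such genes, 11.1% overlap a peak of S2 at 26°C, 15.7% a peak of S2 at 20°C and 11.1% a peak of S1 at 20°C. Genic members of S1 at 26°C therefore recurred at S1 and hardly at S2, and members outside genes showed no such preference. The list of S1 at 20°C is also the one with the most peaks in genes, and this was not separated from the stage.

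**Figure D4:**
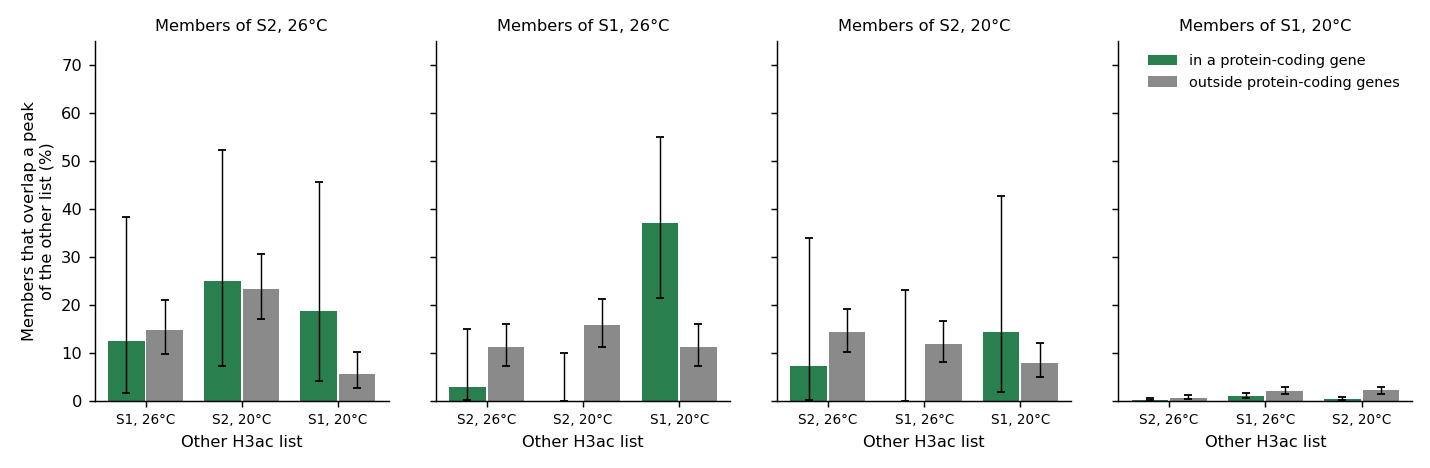
Share of the members of each H3ac list, in percent with exact 95% intervals, that overlap a peak of each other H3ac list, for members in a protein-coding gene (green) and outside (grey). Of the genic members of S1 at 26°C, 2.86% overlap a peak of S2 at 26°C, 0 a peak of S2 at 20°C and 37.1% a peak of S1 at 20°C.

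By gene, members were found in 1453 of 31728 protein-coding genes (4.58%), where 5.47% have an H3ac peak of any kind. They were 12 genes at S2 and 26°C, 36 at S1 and 26°C, 13 at S2 and 20°C and 1411 at S1 and 20°C, and 1435 of the 1453 had members in 1 list only, 17 in 2 and 1 in 3. Members also lay in 55 of 1562 pseudogenes (3.52%) and 49 of 2561 genes of long noncoding RNA (lncRNA, 1.91%). They lay in 15 of 971 genes of small nucleolar RNA (snoRNA, 1.54%) and 3 of 1407 genes of ribosomal RNA (rRNA, 0.213%). These shares are below that of protein-coding genes, and the 3 rRNA genes were overlapped by 1 member of S2 at 20°C. A gene can hold a member and still carry H3K27me3 elsewhere in its span. This was so for 290 of the 1453 genes (20.0%, 17.9 to 22.1%), where 19.8% of all protein-coding genes carry an H3K27me3 peak of any list. With 3 kb added on each side it was 35.6%, against 36.3% of all protein-coding genes. Genes with a member were longer, with a median of 4067 bp, against 3203 bp for all protein-coding genes. The genes of these peaks thus carried H3K27me3 about as often as any gene, although the peaks themselves were picked to lie outside it. That share depends on the rule, which set aside the H3ac peaks under H3K27me3. Of the other 281 protein-coding genes with an H3ac peak, 274 carried H3K27me3 in the gene (97.5%). The likeness to all genes therefore describes the selected genes and is not a test.

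The stage patterns over both temperatures ran one way. Among the 1734 protein-coding genes with an H3ac peak, 0.115% had one at S2 at both temperatures and none at S1 in the gene or within 3 kb, and 1.27% had the reverse. One at both stages of 26°C and none at 20°C was found in 0%, and the reverse in 0.692%. With members, 0 genes had the S2 pattern and 13 the S1 pattern, and 0 genes had the 26°C pattern and 2 the 20°C pattern. The list of S1 at 20°C, which holds the most peaks, enters both of the patterns that were filled.

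In 10 of the 13 genes of the S1 pattern, the members of the 2 temperatures overlap each other. Their summits lay 8 to 533 bp apart (median 96.5 bp), the nearest H3K27me3 peak of any list was at least 5727 bp away, and 0 of these 10 genes carry H3K27me3 in the gene. In these genes the 2 libraries of S1 placed a peak on the same short stretch. In the other 3 genes, which all carry H3K27me3 elsewhere in the gene, the summits lay 10274 to 21489 bp apart. LOC25490945 and LOC25490950, 2 of these 3, overlap on chromosome 3 and share the same peaks. The fold enrichment over the 13 genes ran from 2.21 to 7.46 at 26°C and from 2.52 to 7.97 at 20°C, and was higher at 20°C in 11 of 13. The 11 count the shared peaks of LOC25490945 and LOC25490950 under both genes. The median background under the members of S1 was 1.28 fragments at 26°C and 0.590 at 20°C. Fold enrichment was taken as fragments plus 1 over background plus 1. In LOC25499519, LOC25489828 and LOC25487248 the fragment numbers were equal at both temperatures. By that ratio, their higher fold enrichment at 20°C is a lower background and not more IP fragments. How far the background set the differences in the other genes was not tested.

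The clearest of them was LOC25494055 (chromosome 4, 57099131 to 57100685), a gene of 1555 bp most of which the peaks span. Its member had a fold enrichment of 7.46 from 16 fragments at S1 and 26°C, the highest of any member of that list, and 7.07 from 11 fragments at S1 and 20°C. The 2 summits lay 15 bp apart, and the nearest H3K27me3 peak was 7765 bp away. LOC25499519 (chromosome 7, 50490099 to 50493170) had 5.72 at S1 and 26°C and 7.45 at S1 and 20°C, each from 13 fragments, with H3K27me3 17488 bp away or farther. LOC25489828 (chromosome 3, 46392594 to 46394068) had 5.26 at S1 and 26°C and 5.91 at S1 and 20°C, each from 11 fragments. All 3 genes were without an H3ac peak at S2 within 3 kb. LOC25487248 (chromosome 2, 38423464 to 38427459) had 4.39 and 5.80, and LOC25502694 (chromosome 8, 26230735 to 26232432) had 4.09 and 4.40, at 26°C and at 20°C. Their nearest H3K27me3 peaks were 34309 bp and 17061 bp away. Each of these 5 genes had members in 2 lists under all 10 alternative settings. The gene table names no product for these loci, so their function is not given here.

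**Figure D5:**
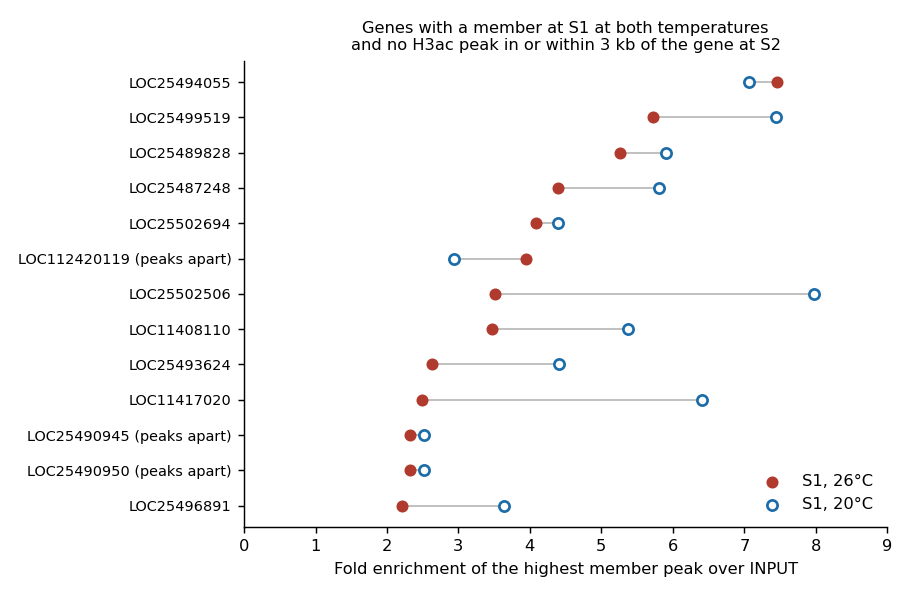
Fold enrichment over INPUT of the highest member peak (x axis) in each of the 13 protein-coding genes with a member at S1 at both temperatures and no H3ac peak within 3 kb at S2, at 26°C (filled red) and at 20°C (open blue). "Peaks apart" marks the 3 genes in which the 2 members do not overlap. In 11 of 13 genes, 2 of which share the same peaks, the open point lies to the right, and LOC25494055 has 7.46 at 26°C and 7.07 at 20°C.

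Of the 2 genes with members at both stages of 20°C and none at 26°C, LOC11410151 (chromosome 8, 49212994 to 49215304) had a fold enrichment of 2.82 at S2 from 7 fragments and 6.92 at S1 from 10 fragments. Both summits lay close to an end of the gene, at 202 bp for S2 and 179 bp for S1. LOC11445788 (chromosome 2, 32430189 to 32526833), a gene of 96645 bp, had 2.28 at S2 and 3.14 at S1, in peaks far apart, and carries H3K27me3 peaks of 4 lists elsewhere in its span. The pattern rests on weak peaks: with a −log10 p of 5 or more, with a q-value of 0.05 or less and with equal peak numbers, LOC11410151 had a member in 1 list and LOC11445788 in 0, and with a fold enrichment of 3 or more each had a member in 1. The sole protein-coding gene with members in 3 lists was LOC120579474 (chromosome 3, 5427045 to 5469407), with 3.64 at S2 and 26°C, 4.39 at S1 and 26°C and 3.68 at S1 and 20°C. Its members are broad, 5017, 11877 and 10199 bp long in that order, and cross an end of the gene. H3K27me3 peaks of 5 lists lie elsewhere in this gene, 16780 bp or more from the members. It had members in 2 lists only with a −log10 p of 5 or more, with equal peak numbers, or with at least 6 fragments at S1 and 20°C.

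The strongest genic members differed between lists. At S1 and 20°C they were LOC11445499 (chromosome 1, fold enrichment 9.43, 14 fragments), LOC11426900 (chromosome 7, 9.32, 17 fragments) and LOC11415933 (chromosome 1, 8.58, 15 fragments). Their peaks were 325 to 708 bp long, and the first 2 had their summits 362 and 109 bp from a gene end. No other H3ac list had a peak in these 3 genes or within 3 kb of them. At S1 and 26°C the third after the 2 genes named above was LOC25483267 (chromosome 1, 5.70, 12 fragments), where a peak of S1 at 20°C with a fold enrichment of 4.40 lay within 3 kb. At S2 and 20°C the highest were LOC120579913 (chromosome 4, 4.23), LOC11430275 (chromosome 7, 3.88) and LOC120580811 (chromosome 6, 3.52). The member in LOC120579913 overlaps a member of S1 at 20°C with a fold enrichment of 4.14, and LOC11430275 also holds an H3ac peak of S1 at 26°C (3.07) that is no member. The last 2 genes span 51962 and 45601 bp and carry H3K27me3 peaks of 3 lists each, so these members lie in long genes that are marked elsewhere.

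At S2 and 26°C the highest genic members were LOC120580469 (chromosome 5, 5.06), LOC120579888 (chromosome 4, 4.86) and LOC120580179 (chromosome 4, 4.22). The member in LOC120579888 lies 40 bp from an H3K27me3 peak, close to the limit of the rule. That of LOC120580179 lies 1361 bp from one and only touches the gene, with its summit 257 bp outside. Members with large values in this list also lay outside genes, and the following were chosen after their values were seen. A peak in the pseudogene LOC120580241 (chromosome 4, 528833 to 529393) had the highest fold enrichment of all members, 15.2, with a −log10 p of 46.5. A peak on chromosome 6 (25752769 to 25753814) had a fold enrichment of 4.14 with a −log10 p of 595. Neither overlaps a peak of another H3ac list.

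Outside protein-coding genes, the member regions that recurred most were those of 3 lists. A region on chromosome 5 (19433096 to 19436767) had a fold enrichment of 2.85 at S2 and 26°C, 3.78 at S1 and 26°C and 5.29 at S2 and 20°C. It lies 13647 bp from the nearest protein-coding gene and 6072 bp from H3K27me3. A region on chromosome 8 (27431596 to 27434319) had 2.66 at S2 and 26°C, 2.86 at S1 and 26°C and 4.92 at S1 and 20°C, and one on chromosome 6 (22056514 to 22057451) had 2.55 at S1 and 26°C, 2.82 at S2 and 20°C and 2.52 at S1 and 20°C. The first lies away from both genes and H3K27me3, whereas the other 2 lie 1240 and 194 bp from an H3K27me3 peak. Noncoding genes with members in 2 lists were also picked, 3 in all. They were the lncRNA genes LOC120577349 (chromosome 8, 3.17 at S2 and 20°C and 6.11 at S1 and 20°C) and LOC120576824 (chromosome 7, 2.46 at S2 and 26°C and 3.89 at S2 and 20°C), and the snoRNA gene LOC120577254 (chromosome 7, 4.39 at S1 and 26°C and 2.60 at S2 and 20°C). The 2 members of LOC120576824 do not overlap each other. LOC120577254 is 107 bp long, and its members, of 6082 bp at S1 and 26°C and 7304 bp at S2 and 20°C, have summits 1858 and 3450 bp from it. H3ac peaks of S2 at 26°C that are no members also overlap LOC120577254 (6.77) and LOC120577349 (3.44). LOC120577349 carries H3K27me3 peaks of 2 lists elsewhere in its span.

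Members of high significance were fewest in the list of S2 at 26°C, which also held the fewest peaks and the fewest members. Where the −log10 p reached 5, there were 25 members at S2 and 26°C (14.0% of its members) and 57 at S1 and 26°C (22.7%). At 20°C there were 47 at S2 (17.7%) and 624 at S1 (20.0%). Of these, 16.0% (4.54 to 36.1%), 22.8% (12.7 to 35.8%), 4.26% (0.520 to 14.5%) and 59.6% (55.6 to 63.5%) overlap a protein-coding gene. These shares were above those of all members in every list but S2 at 20°C, and only at S1 and 20°C did the interval stand clear of that of all members. Peaks under H3K27me3 that reached this level overlap such a gene in 11.6, 7.69, 7.79 and 29.7% of cases, in the same order. Of those that did not reach it, 6.52, 8.28, 6.21 and 17.5% do.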

How the data were processed

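Per the labels and the study's methods, the authors trimmed the reads, mapped them with STAR to MtrunA17r5.0 keeping uniquely placed reads, marked duplicates by means of Picard and, for every IP library, ran macs2 against the INPUT of the same condition at a p-value threshold of 0.01; no libraries were pooled. Tool versions are not given in the sources used here, and the published script shows a broad setting although the deposited H3ac peaks have the narrow layout. The deposited values of a peak are its fold enrichment (ratio of IP over INPUT), a −log10 p-value, a −log10 q-value and, for H3ac, the offset of the summit. Library totals were not taken from the lists, which hold none, so depth is given as fragments at summits. A deeper INPUT, fewer fragments or a looser threshold can each change which peaks are listed, and a missed H3K27me3 peak makes an H3ac peak a member.

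Overlaps were computed in pandas 2.3.3 and NumPy 2.4.6 under Python 3.11.15, intervals in SciPy 1.17.1 and figures in matplotlib 3.10.9. The split of H3ac peaks was checked against bedtools 2.31.1 (4 of 4 lists equal), and the overlap and fragment steps were tested on simulated data. Fragments were solved from fold enrichment, taken as fragments plus 1 over background plus 1, and the Poisson p-value. Whole numbers were tried, and the best was kept where its −log10 p differed from the deposited one by at most 0.005 of that value. In the list of S2 at 26°C only 33 of 179 members gave such a number, so none is used there. Genes are those of the RefSeq annotation of MtrunA17r5.0-ANR (39280 on chromosomes 1 to 8, 31728 protein-coding), which gives neither strand nor product, so keyword lists of seed genes, sequences and sides of genes were not used here. No genome was used.

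The members and lists were chosen with earlier results of these data known. Named genes are those with members in the most H3ac lists (6), the stage and temperature patterns over both conditions (up to 4 each way), the 3 of highest fold enrichment in each list, 3 noncoding genes and 3 intergenic regions of most lists. The other genes of the S1 pattern were added after seeing their values. No test between conditions was run, since each has 1 library. Dixon's ratio over the 4 lists only marked lists that stand apart. Alternatives were other thresholds, overlaps, gap limits, H3K27me3 lists, equal peak numbers and merging.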

Additional observations from a re-analysis of the deposited data

Results flagged for a closer look

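For 6 measures over the members, the H3ac list farthest from the other 3 was compared with the spread of all 4 lists. In 3 of them the list of S1 at 20°C lay apart by more than Dixon's 95% limit. It had 3124 members, against 179 to 266 in the other lists. Its share of H3ac peaks that are members was 71.4%, against 28.7 to 33.8%. Its share of members that overlap another H3ac list was 2.72%, against 30.1 to 34.6%. Chance flags about 1 in 20 groups, the 4 lists are 4 conditions and not replicates, and the 3 measures come from the same list.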

How the results depend on the processing

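No paired analysis was possible because each condition has 1 library and the results come from no test. Of 78 values under alternatives, 36 stayed within the interval of the reported value, 40 moved outside it and 2 changed sign. The values are the pooled share of members (57.7%), the log2 ratios of member number and the means over lists of the share in protein-coding genes (18.5%) and of the share that recurs (24.7%). For peaks whose −log10 p reached 5 the share was 43.3%, the ratio of S2 over S1 at 26°C −1.19, that of 26°C over 20°C at S2 −0.91, the share in genes 25.7% and the share that recurs 10.7%. With a q-value of at most 0.05 these were 49.0%, −0.90, −1.09, 20.9% and 13.5%, with −3.19 for S2 over S1 at 20°C and −3.38 for 26°C over 20°C at S1. A fold enrichment of at least 3 gave −1.02 for S2 over S1 at 26°C, −3.97 at 20°C and 15.5% that recur. These thresholds, and equal peak numbers below, also shortened the lists compared against. Set against the full lists, members whose −log10 p reached 5 recurred in 28.0% at S2 and 26°C and 33.3% at S1 and 26°C. At 20°C it was 25.5% at S2 and 2.72% at S1. For all members these shares were 34.6, 31.5, 30.1 and 2.72% in the same order. An overlap of at least 200 bp gave a share of 61.2%, and removing peaks within 1 kb of H3K27me3 gave 48.4%, with −3.84 for 26°C over 20°C at S1. With the H3K27me3 lists of S1 and S2 only, the share was 71.8%, the ratios with S1 at 20°C −2.93 for S2 over S1 and −3.13 for 26°C over 20°C, the share in genes 16.6% and the share that recurs 31.5%. With the 530 strongest peaks of each list the share was 36.1%, and 0.20 for S2 over S1 at 26°C and 0.83 for 26°C over 20°C at S2 changed sign (the interval of the first includes 0). The other ratios became −1.70 for S2 over S1 at 20°C and −1.08 for 26°C over 20°C at S1, with 23.3% in genes and 13.6% that recur. Merging within 1 kb gave 59.7%, −0.84 for S2 over S1 at 26°C and −3.83 at 20°C. With 3 kb on each side 30.0% lay in genes, and requiring an overlap of 0.5 of the member left 16.4% that recur. Chosen after seeing the data, at least 6 fragments at S1 and 20°C gave 42.6%, −1.53 for S2 over S1 at 20°C, −1.61 for 26°C over 20°C at S1, 21.6% in genes and 21.6% that recur, and the other 3 H3ac lists alone gave 31.0% and 9.38% in genes. H3K27me3 peaks of q at most 0.05, also added, moved no value. The cause of each shift was not tested. Of 21 named genes, 12 had members in the same lists under all 10 settings.

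Single libraries, low fragment numbers at S1 and 20°C and thresholds applied upstream limit these values, and an H3K27me3 peak missed at its depth would leave an H3ac peak among the members that belongs outside.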
